A study of Danio rerio with 6 samples.

Results

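The clusters described here are the 32 dual-strand piRNA clusters outside chromosome 4, of 171 piRNA clusters in the deposited table. A cluster was included when the table placed it on a chromosome other than 4 and gave both genomic strands for it in the control embryos (F1-C). The strands of F1-C chose the members, so their strands there are a description. Outside chromosome 4, 90 further clusters had a single strand in F1-C. Chromosome 4 held 49 clusters, of which 11 had both strands. The table does not divide the counts between the strands, so the amount of piRNA from each strand is not known.

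Small RNA was sequenced from whole zebrafish embryos of the wild-type AB strain at 5.5 h post fertilization, when the blastoderm covers about 50% of the yolk. F1-γ embryos came from parents irradiated with gamma rays during gametogenesis, at a rate of 8.7 mGy/h and a total dose of 5.2 Gy, and mated 1 year afterwards. F1-C embryos came from parents without exposure. Each group had 3 libraries, each from a pool of 100 embryos. The methods describe replicate sets of parents in both groups and a pool from each replicate, while the labels do not tie a library to a set of parents. The p-values measure the spread between these pools. The total on piRNA clusters was between 469295 and 810056 counts per library. By a chi-square test of the cluster counts, F1-γ library 1 stood furthest from its replicates, with 428 and 448 per degree of freedom against 32.5 to 88.9 in the other pairs. The counts of calls are given without it below. The chi-square test took in all clusters, and some outside the members, named below, had counts in this library far from its replicates. Their part in these values was not tested. The 3p arms of miR-430a, miR-430b and miR-430c, which clear maternal mRNA in the early embryo, made up 48.9% to 55.6% of miRNA counts. The 8 miRNA markers of liver, neurons, blood and muscle together made up 0.0419% to 0.0488% in F1-C and more in F1-γ, 0.0604% to 0.0761%, without overlap. Of the 8, miR-9-5p and miR-1-3p were higher in F1-γ without overlap and the other 6 overlapped, and miR-124-3p, which defines neurons, was at 0 in 3 of 6 libraries. The snRNA table held 1.40% to 1.75% of the counts of all 4 tables in F1-C, against 0.264% to 0.378% in F1-γ. Both shifts separate the groups, as some of the results below do, and their part in those results was not tested. In whole embryos, fewer cells of a type and less RNA per cell cannot be told apart.

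Piwi-interacting RNAs (piRNAs) are small RNAs bound by Piwi proteins. They silence transposable elements in the germline, and an egg passes them on to the embryo. Most come from clusters, long genomic regions rich in transposon remnants, whose transcripts are cut into piRNAs. In a single-strand cluster the piRNAs come from a single genomic strand. In a dual-strand cluster they come from both, either intermingled over the region or divided at a point within it. In Drosophila, dual-strand clusters feed the ping-pong cycle, in which sense and antisense piRNAs guide the cutting of each other's precursors. The paper describes its clusters as sense, antisense or bidirectional in orientation. The order of the strands in the table (-/+ or +/-) is given as the table has it, and whether the strands of a cluster intermingled was not analysed here.

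The 32 clusters lay on 16 chromosomes of the build GRCz10, with 5 on chromosome 6, 4 on chromosome 18, and 3 each on chromosomes 5 and 8. In F1-C, 24 were listed as -/+ and 8 as +/-. Their F1-C regions were between 5.64 and 33.6 kb long with a median of 9.88 kb, against a median of 8.70 kb for single-strand clusters outside chromosome 4. Regions over 20 kb made up 7 of the 32 (21.9%), against 4 of the 90 single-strand clusters (4.44%). The 11 clusters with both strands on chromosome 4 had a longer median, 10.9 kb, and 1 of them (9.09%) was over 20 kb. Together the members covered 422 kb of the genome by their F1-C regions and 427 kb by their F1-γ regions. By the F1-C regions, many had a listed neighbour: 12 lay within 50 kb of another cluster and 20 within 200 kb. The other clusters were not counted in this way. For 9c & 8g the neighbour was 12c &10g at 36.3 kb, whose F1-γ region lay elsewhere, at chr10:12275057-12281024. An example of close neighbours is 65c & 62g on chromosome 17, which lay 7.18 kb from the single-strand cluster 66c & 63g. A further member, 67c & 64g, lay 96.7 kb beyond that neighbour.

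The members differed widely in the number of piRNA reads they gave. Levels are given here as counts per 1000000 cluster counts after TMM normalisation (CPM), which are not divided by length. The mean over the 6 libraries ranged from 1454 CPM for 235c & 249g to 23544 CPM for 258c & 271g, with a median of 3985 CPM. The median over all 171 clusters was 3080 CPM. The 5 highest members were 258c & 271g, 65c & 62g, 141c & 148g, 71c & 68g and 287c & 296g, and they ranked between 6 and 21 among all clusters. The members' counts were therefore concentrated, with 48.1% ± 0.899 (SD, n = 3) on these 5 clusters in F1-C and 50.1% ± 1.02 (n = 3) in F1-γ (p = 0.1, two-sided exact permutation test; adjusted p = 0.171). Per kb of each group's own region, the median member was close to the median cluster. The members' median was 305 CPM per kb in F1-C, against 309 in F1-γ, and that of all clusters 317 and 307 CPM per kb.

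**Figure D1:**
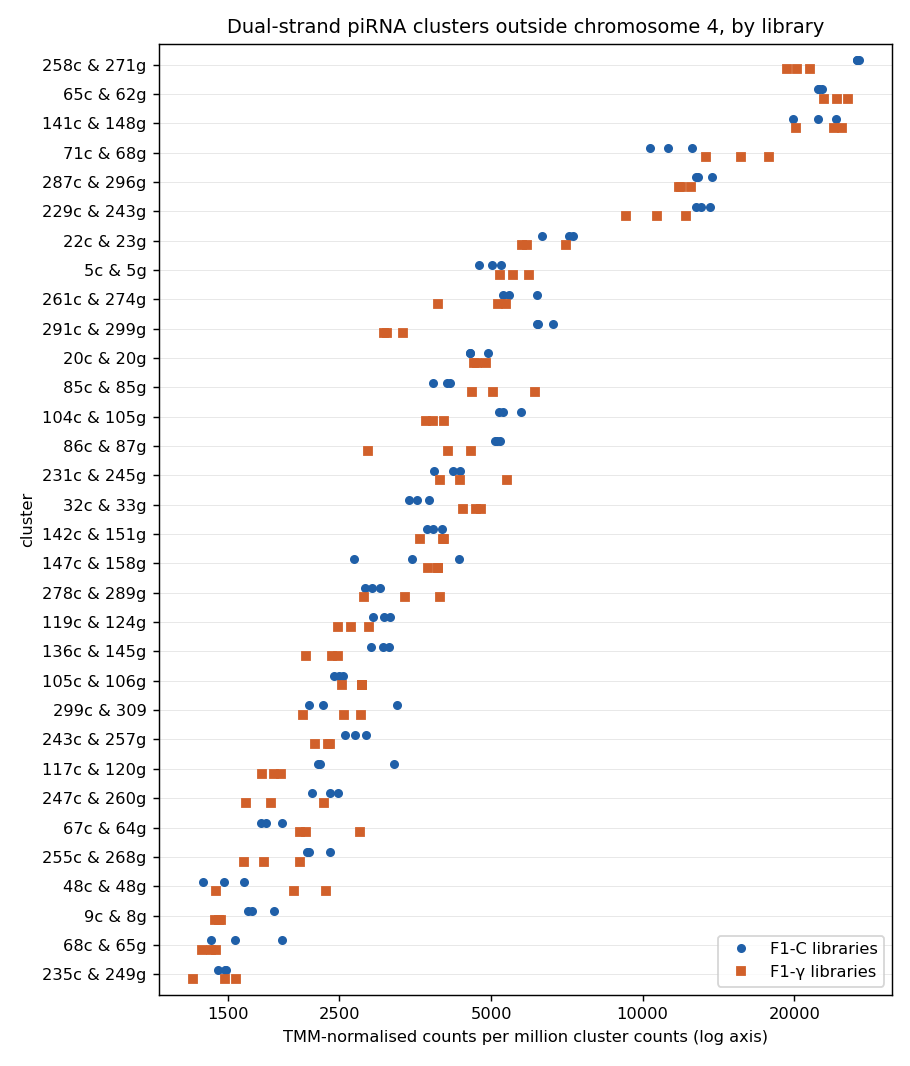
TMM-normalised counts per 1000000 cluster counts (CPM, log axis) of the 32 dual-strand piRNA clusters outside chromosome 4, ordered by their mean, with a point for each of the 3 F1-C (circles) and 3 F1-γ (squares) libraries. The F1-γ libraries of 291c & 299g lie at 3066 to 3348, below its F1-C libraries at 6176 to 6645.

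The first question was whether these clusters as a whole held a larger or smaller share of the cluster counts after parental irradiation. Their share of all cluster counts was nearly the same in both groups. It was 19.7%, 19.7% and 19.4% in the F1-C libraries, against 19.1%, 19.3% and 19.8% in F1-γ. The means were 19.6% ± 0.139 and 19.4% ± 0.345 (SD, n = 3 each), the groups overlapped, and the difference was smaller than the spread between the F1-γ libraries (p = 0.4, two-sided exact permutation test; 0.1 is the smallest p that 3 against 3 libraries allow). In all, 12 such values were compared between libraries, and the adjusted p of this difference was 0.436 by the Benjamini-Hochberg method over them.

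Raw counts were higher in the F1-γ libraries. The summed counts of the 32 clusters were 113610, 92331 and 117398 in F1-C, against 154637, 117861 and 158698 in F1-γ, without overlap. The F1-γ mean was 1.33-fold the F1-C mean (p = 0.1, exact permutation test; adjusted p = 0.171). Divided by each group's own length, the sums were 269, 219 and 278 counts per kb in F1-C, against 362, 276 and 372 in F1-γ. Here the groups overlapped, and the ratio was 1.32 (p = 0.2, exact permutation test; adjusted p = 0.267). The raw sums carry the total of each library on piRNA clusters, which was higher in F1-γ. That total holds both sequencing depth and the amount of piRNA. The paper reports that reads mapping to piRNA were enriched in F1-γ, which concerns mapped reads and not the counts on these clusters. Of the counts of all 4 tables, the piRNA clusters held 40.79%, 27.15% and 31.88% in the F1-C libraries. In F1-γ they held 33.55%, 28.78% and 36.81%, and the groups overlapped. This share also depends on the counts of the other tables. Scaling to the cluster total would also remove a rise that all clusters share. Scaled to the cluster total of each library as well, the ratio was 0.978, with 464 ± 3.30 counts per kb and 1000000 cluster counts (SD, without TMM factors) in F1-C, against 454 ± 8.09 in F1-γ (n = 3; p = 0.2, exact permutation test; adjusted p = 0.267).

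Set against the other clusters of the same library, the members' summed counts per kb stood lower relative to single-strand clusters and higher relative to chromosome 4. The counts per kb of the members were 0.978, 0.998 and 0.951 times those of single-strand clusters outside chromosome 4 in the F1-C libraries and 0.861, 0.909 and 0.936 times in F1-γ. Relative to the clusters on chromosome 4, the ratio was 0.734, 0.717 and 0.734 in F1-C, against 0.834, 0.791 and 0.819 in F1-γ. Neither ratio overlapped between the groups, and both reached the smallest p of 0.1 (two-sided exact permutation test; adjusted p = 0.171). The 2 ratios share the members' counts and are not independent. F1-γ library 1 gave the extreme of both, and the other F1-γ libraries also lay outside the F1-C range. Some clusters in the denominators had counts in library 1 far from its replicates. Single-strand 226c & 241g had 25275, against 2978 and 5020. On chromosome 4, 176c & 191g had 2147 against 10466 and 14471, and 178c & 193g 1644 against 19088 and 26736. In the opposite direction, 177c & 192g had 17346 against 1686 and 2414. Their part in the ratios was not tested. The ratios are of sums, and the medians over clusters differed less. The median log2 fold change from counts was -0.09 over the members, 0.03 over single-strand clusters and -0.08 over chromosome 4. Per length these medians were -0.11, -0.075 and -0.12. By the median, the members were thus close to chromosome 4.

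**Figure D2:**
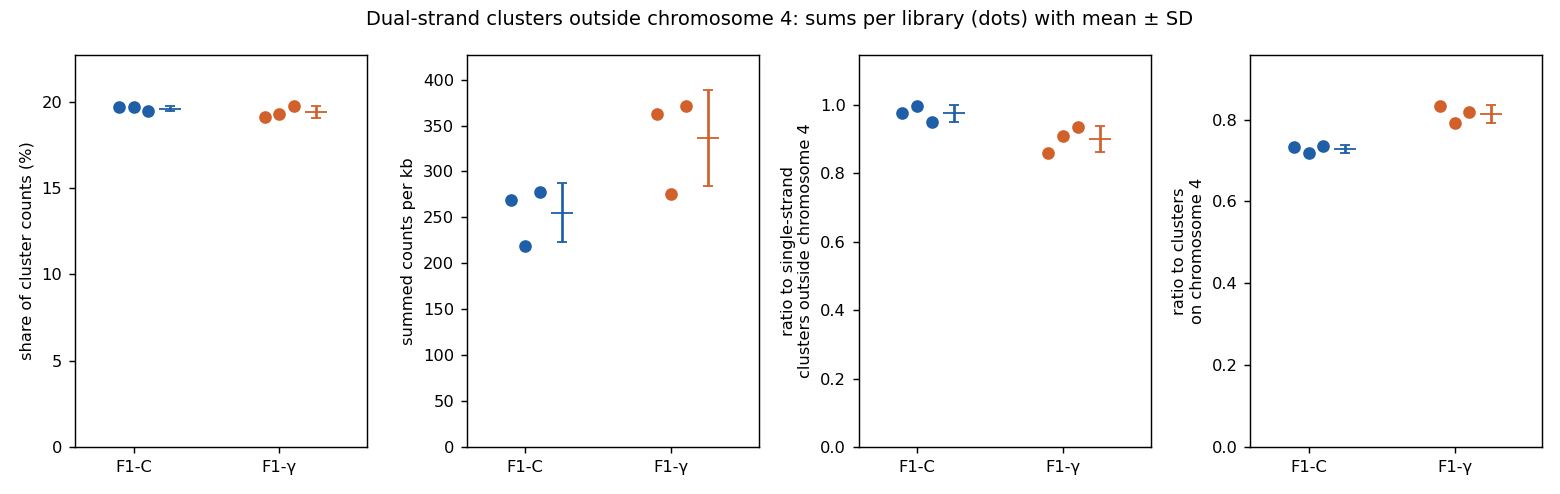
From left to right, the share of cluster counts (percent), the summed counts per kb, and the ratio of counts per kb to single-strand clusters outside chromosome 4 and to chromosome 4, for the dual-strand clusters in each library (dots), with the mean and SD of each group (n = 3) beside the dots. The shares overlap at 19.1% to 19.8%, while both ratios separate the groups.

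Each cluster was then tested between the groups with edgeR's quasi-likelihood test over all 171 clusters, and called when the adjusted p was below 0.05 and the log2 fold change above 0.6 or below -0.6. Over all clusters, 11 were called (6.43%), 4 higher in F1-γ (2.34%) and 7 lower (4.09%). Among the 32 members, 1 was called, 291c & 299g, which was lower in F1-γ, and none was called higher. Without F1-γ library 1, 18 clusters were called over all, and the members still held 1. The adjusted p alone was below 0.05 for 18 clusters (10.5%) and 4 members. This number of members depended on single libraries: it was 9 without F1-γ library 1, 2 without F1-γ library 2, and 1 without F1-γ library 3 or any single F1-C library. Over all clusters, calls at both thresholds moved as well, to 18, 8 and 5 without F1-γ library 1, 2 and 3. They were 12, 8 and 3 without F1-C library 1, 2 and 3. Since the number over all clusters at the adjusted p alone is not given for these fits, the members' numbers are not read as particular to them. At an unadjusted p below 0.05 there were 64 clusters (37.4%) and 13 members. The median log2 fold change was -0.09 over the members and -0.02 over all clusters, with 14 members above 0 and 18 below. With upper-quartile normalization, which moved all clusters upwards, these medians were 0.0084 and 0.08.

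Many small differences exceeded the spread between the 3 libraries of a group. CPM did not overlap between the groups in 17 members (53.1%), against 80 of all clusters (46.8%). Of the 17, 5 were higher in F1-γ and 12 lower, where all clusters gave 36 higher (21.1%) and 44 lower (25.7%). Per kb of the own region, the counts were again 17 members, 5 higher and 12 lower, against 74 of all clusters (43.3%), 25 higher (14.6%) and 49 lower (28.7%). Replicates agreed closely: the median coefficient of variation of a member's CPM was 4.91% in F1-C and 7.44% in F1-γ.

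The groups were counted over regions of their own, so the same comparison was made after division by each group's length. This gave 12 calls over all clusters (7.02%), 3 higher (1.75%) and 9 lower (5.26%). The members again held 1 call, but of another cluster, 255c & 268g. The adjusted p alone was below 0.05 for 19 clusters (11.1%), of which 16 were lower in F1-γ (9.36%), and for 5 members, 104c & 105g, 235c & 249g, 255c & 268g, 258c & 271g and 291c & 299g, each lower in F1-γ. Of the members, 0 passed by edgeR's adjusted p when any single F1-C library was left out, 9 without F1-γ library 1, and 3 without F1-γ library 2 or 3. Over all clusters, calls at both thresholds changed too, with 8 higher and 11 lower without F1-γ library 1. They were 3 higher and 6 lower without F1-γ library 2, and 2 higher and 6 lower without F1-γ library 3. With an F1-C library left out, 3 to 4 were higher and 3 to 4 lower. The number over all clusters at the adjusted p alone is not given for these fits. The median log2 fold change per length was -0.11 over the members and -0.09 over all clusters. Simulated data without any change gave -0.055 per length on average, and no correction for this shift was made. With the approach named in the methods of the study, voom with sample quality weights on RPKM, 13 clusters were called (7.6%), 5 higher (2.92%) and 8 lower (4.68%), and none of the members. The paper's own list of differing clusters has other numbers of higher and lower clusters than this fit, and it too holds no member. In the voom fit made here, limma's adjusted p alone was below 0.05 for 30 clusters (17.5%), 13 higher (7.6%) and 17 lower (9.94%). It was below 0.05 for 7 members, 2 higher and 5 lower, and 59 clusters (34.5%) and 15 members had an unadjusted p below 0.05.

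**Figure D3:**
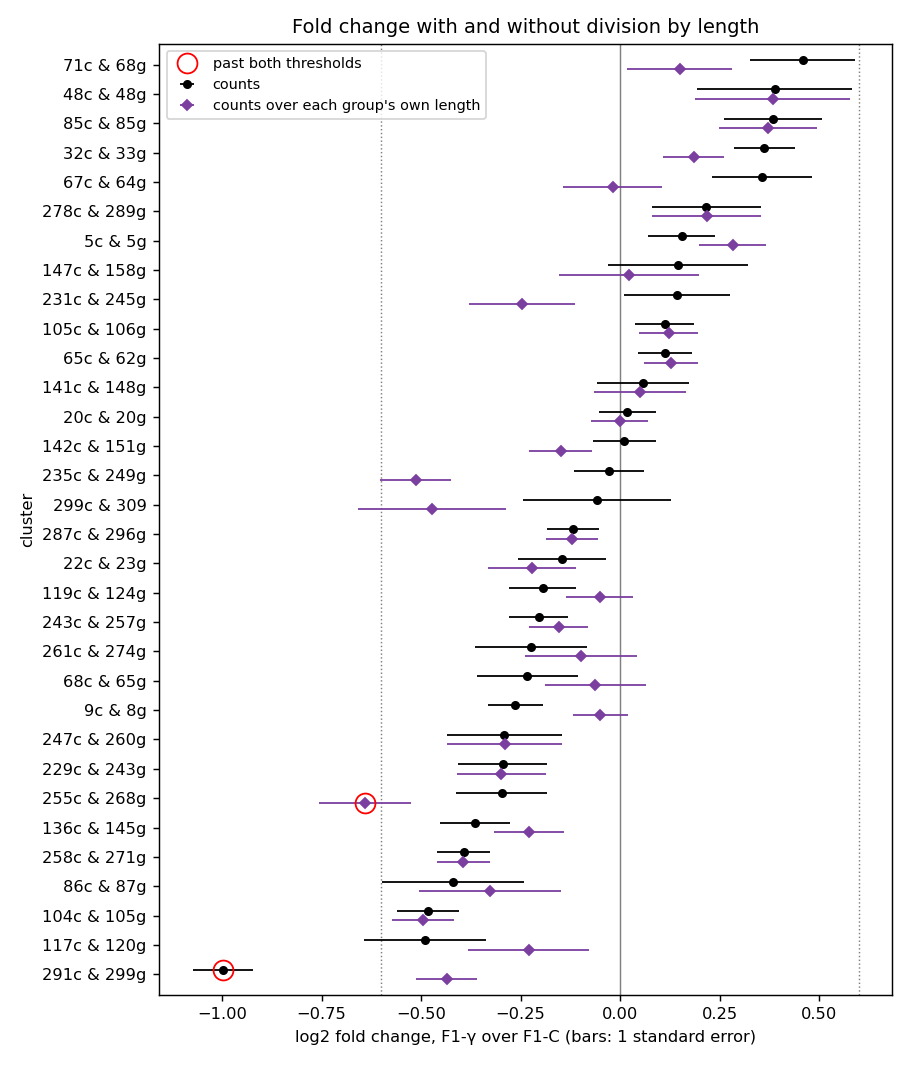
Log2 fold change of each dual-strand cluster (F1-γ over F1-C) with 1 standard error, from counts (circles) and from counts over each group's own length (diamonds), with n = 3 libraries per group. Dotted lines mark 0.6 and -0.6, and red rings mark a value past both thresholds, which are 291c & 299g from counts (-1.0) and 255c & 268g per length (-0.64).

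The cluster called from counts, 291c & 299g, lay at chr8:45210098-45232001 in F1-C and was listed as -/+ in both groups. It gave 6195, 6645 and 6176 CPM in the F1-C libraries and 3111, 3066 and 3348 CPM in the F1-γ libraries. The groups were far apart, and the F1-C mean was 2.0-fold the F1-γ mean. The log2 fold change was -1.0 (SE 0.076, adjusted p = 0.00227, edgeR quasi-likelihood test with Benjamini-Hochberg adjustment), and it stayed past both thresholds without each library in turn. Its F1-γ region, chr8:45210098-45224941, began at the same base but ended 7.06 kb earlier, at 14.8 kb against 21.9 kb. Per kb the levels were 283, 303 and 282 CPM in F1-C and 210, 207 and 226 CPM in F1-γ. These still did not overlap, but the log2 fold change per length was -0.44 (SE 0.076, edgeR adjusted p = 0.0167), inside the limit of -0.6. Without each library in turn, the edgeR adjusted p per length ranged from 0.0249 to 0.0703 and passed 0.05 in 3 of 6 fits.

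The neighbouring cluster gave more CPM in F1-γ over a longer region, and not more per kb. In F1-C, 4.19 kb separated 291c & 299g from the single-strand cluster 290c & 298g, which gave 3024, 2096 and 1913 CPM in F1-C and 4946, 3638 and 3746 CPM in F1-γ (log2 fold change 0.81, edgeR adjusted p = 0.064). The region of 290c & 298g was 8.90 kb long on the plus strand in F1-C and 18.9 kb long and listed as -/+ in F1-γ, and the gap to 291c & 299g narrowed to 1.11 kb. Per kb, 290c & 298g gave a mean of 263 CPM in F1-C and 218 CPM in F1-γ with overlapping libraries, and its log2 fold change per length was -0.27 (SE 0.215, edgeR adjusted p = 0.429). Together the pair spanned 35.0 kb by the F1-C regions (chr8:45197003-45232001) and 34.8 kb by the F1-γ regions (chr8:45190119-45224941). These spans were near in size but not the same bases, since both outer ends lay earlier in F1-γ. Sums over the pair therefore cover partly different bases in the 2 groups. The summed CPM of the pair was 9219, 8741 and 8089 in F1-C, against 8057, 6703 and 7094 in F1-γ, which did not overlap and had a ratio of 0.839. This pair was chosen after its values were seen, so its exact permutation p of 0.1, the smallest possible, is no independent evidence. The part of the region ends in the call was not tested.

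The cluster called per length, 255c & 268g, lay at chr6:20619003-20627689 in F1-C and reached 2.34 kb further in F1-γ. Its CPM was 2153, 2399 and 2179 in F1-C, against 2090, 1614 and 1770 in F1-γ, with a narrow gap between the groups. The log2 fold change from counts was -0.30 (SE 0.115, edgeR adjusted p = 0.115). Divided by length, the levels were 248, 276 and 251 CPM per kb in F1-C, against 190, 146 and 161 in F1-γ, with a log2 fold change of -0.64 (SE 0.115, edgeR adjusted p = 0.0167). The lower value per kb thus combined a lower CPM, with an F1-γ mean 0.813 of that in F1-C, with a region 26.9% longer. The mean raw count of the cluster was not lower, at 1209 in F1-C and 1396 in F1-γ. The call was kept in 1 of the 6 fits that left out a library, the fit without F1-γ library 1. In all the others the edgeR adjusted p was not below 0.05, and it reached 0.0846. The log2 fold changes lay between -0.75 and -0.53 over the 6 fits. With voom on RPKM the log2 fold change of 255c & 268g was -0.59 (limma adjusted p = 0.0236), inside the limit of -0.6. The value per length also includes the shift of that fit, which was -0.055 on average in simulated data without any change.

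The member with the highest mean CPM, 258c & 271g, had a lower CPM in F1-γ at almost the same region. It lay at chr6:20765358-20798989, and its length differed by 0.0178% between the groups. CPM was 26913, 26688 and 26603 in F1-C, against 21483, 19344 and 20236 in F1-γ. The F1-C libraries were close to each other, and all F1-γ libraries lay below them. The F1-C mean was 1.31-fold the F1-γ mean, with a log2 fold change of -0.39 (SE 0.067, edgeR adjusted p = 0.0186), which does not reach -0.6. Without each library in turn the edgeR adjusted p ranged from 0.00703 to 0.0935 and passed 0.05 in 1 of 6 fits. When scaled to totals of all 4 tables or of the miRNA table, no member had an edgeR adjusted p below 0.05. The mean raw count of 258c & 271g was 14488 in F1-C and 15464 in F1-γ.

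The other members on chromosome 6 had values on the same side. The log2 fold changes of all 5 clusters there (243c & 257g, 247c & 260g, 255c & 268g, 258c & 271g and 261c & 274g) were negative, between -0.39 and -0.20. Their summed CPM was 39647, 40330 and 38975 in F1-C, against 32809, 29611 and 31352 in F1-γ, so that F1-γ held 0.788 of the F1-C mean. Without 258c & 271g the sums were 12734, 13642 and 12372 in F1-C, against 11326, 10267 and 11116 in F1-γ, which still did not overlap. Of the 5, the edgeR adjusted p was below 0.05 for 258c & 271g only. Chromosome 6 was singled out after the values of all 16 chromosomes were seen, so no test is read from it. On the other chromosomes with more than 1 member, both members were negative on chromosome 20 and both positive on chromosomes 3 and 17, and on chromosomes 5, 8, 18, 19 and 25 they differed in sign. Separated sums were not particular to chromosome 6. The members' summed CPM also did not overlap on chromosomes 5, 8, 19 and 20, lower in F1-γ, and on chromosomes 17 and 18, higher. It overlapped on chromosomes 3 and 25.

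The next lowest values belonged to 104c & 105g on chromosome 19 and 117c & 120g on chromosome 20. At chr19:17134196-17144027, 104c & 105g gave 5293, 5739 and 5178 CPM in F1-C and 4034, 3842 and 3721 CPM in F1-γ. Its groups were well separated at a length that differed by 0.865%, with a log2 fold change of -0.48 (SE 0.078, edgeR adjusted p = 0.0159). Without each library in turn the edgeR adjusted p was 0.0177 to 0.0753 and passed 0.05 in 2 of 6 fits. The next member along the chromosome, 105c & 106g at a distance of 66.0 kb, gave 2436, 2496 and 2539 CPM in F1-C and 2531, 2774 and 2770 CPM in F1-γ, with a log2 fold change of 0.11 (SE 0.074, edgeR adjusted p = 0.318). At chr20:6411188-6418856, 117c & 120g gave 3203, 2271 and 2288 CPM in F1-C and 1753, 1916 and 1856 CPM in F1-γ. The F1-C libraries were spread by the first of them, and the log2 fold change was -0.49 (SE 0.153, edgeR adjusted p = 0.0751). Its F1-γ region was 16.5% shorter, and per length the log2 fold change was -0.23 (SE 0.152, edgeR adjusted p = 0.334).

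The members with the largest positive values stayed below the threshold of 0.6. The largest was 71c & 68g at chr18:29723026-29744018, with 11206, 12553 and 10357 CPM in F1-C and 13344, 17848 and 15680 CPM in F1-γ. Its groups did not overlap, but the F1-γ libraries were widely spread, and the log2 fold change was 0.46 (SE 0.132, edgeR adjusted p = 0.0644). The F1-γ region ended 5.0 kb later and was 23.8% longer, and per length the log2 fold change was 0.15 (SE 0.132, edgeR adjusted p = 0.502), with overlapping groups. The cluster 48c & 48g at chr16:15827037-15836017 gave 1472, 1339 and 1614 CPM in F1-C and 1420, 2027 and 2351 CPM in F1-γ. Here F1-γ library 1 fell among the F1-C libraries, and the log2 fold change was 0.39 (SE 0.194, edgeR adjusted p = 0.196). Its region differed by only 0.401% in length.

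The cluster 85c & 85g at chr18:33235012-33244709 gave 4152, 4086 and 3838 CPM in F1-C and 4580, 6126 and 5041 CPM in F1-γ. Its groups did not overlap at a length within 0.742%, with a log2 fold change of 0.38 (SE 0.123, edgeR adjusted p = 0.0793). On the same chromosome, 267 kb away, 86c & 87g gave 5200, 5130 and 5098 CPM in F1-C and 4573, 4111 and 2844 CPM in F1-γ, a log2 fold change of -0.42 (SE 0.178, edgeR adjusted p = 0.139). This neighbour is named for its place and was chosen after its values were seen. With voom on RPKM, 85c & 85g (log2 fold change 0.42, limma adjusted p = 0.0379) and 5c & 5g on chromosome 1 (0.33, limma adjusted p = 0.0461) were the members with a positive value and an adjusted p below 0.05.

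Among the other abundant members, 65c & 62g at chr17:49443210-49466990 gave 22736, 22446 and 22334 CPM in F1-C and 22959, 25633 and 24347 CPM in F1-γ. The groups were separated by a narrow gap, and the log2 fold change was 0.11 (SE 0.068, edgeR adjusted p = 0.283). It was the member with the highest mean raw count, and its share of the members' counts was 11.3% ± 0.210 in F1-C and 12.8% ± 0.396 in F1-γ (n = 3; p = 0.1, two-sided exact permutation test; adjusted p = 0.171). The cluster 141c & 148g at chr25:27226301-27247590 gave 22337, 24210 and 19898 CPM in F1-C and 20173, 24016 and 24933 CPM in F1-γ. Its groups overlapped fully, with a log2 fold change of 0.06 (SE 0.116, edgeR adjusted p = 0.799). The cluster 287c & 296g at chr8:43651659-43664893 gave 13729, 12872 and 12748 CPM in F1-C and 12473, 11822 and 11937 CPM in F1-γ, a log2 fold change of -0.12 (SE 0.066, edgeR adjusted p = 0.241).

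The listed strands were mostly the same in F1-γ. Of the 32 members, 26 had both strands there too, 19 as -/+ and 7 as +/-, and 6 had a single strand. Because the members were chosen by F1-C alone, clusters could only lose a strand in F1-γ. In the opposite direction, 6 of the 90 single-strand clusters outside chromosome 4 had both strands in F1-γ, and the number with both strands outside chromosome 4 was 32 in each group. The change of strand did not go with a change of level in a single direction. Listed as minus in F1-γ were 9c & 8g, 85c & 85g and 105c & 106g, and listed as plus were 20c & 20g, 32c & 33g and 117c & 120g.

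Of these 6 clusters, 32c & 33g at chr14:15150399-15160009 had the smallest adjusted p. It gave 3771, 3567 and 3432 CPM in F1-C and 4390, 4779 and 4676 CPM in F1-γ, without overlap. The log2 fold change was 0.36 (SE 0.077, edgeR adjusted p = 0.036) from counts, and 0.18 (SE 0.077, edgeR adjusted p = 0.158) per length, over an F1-γ region that was 13.1% longer. The edgeR adjusted p from counts was 0.0238 to 0.145 with a library left out, below 0.05 in 1 of 6 fits. The cluster 9c & 8g at chr10:11970128-11978025 gave 1676, 1647 and 1850 CPM in F1-C and 1414, 1440 and 1458 CPM in F1-γ. Its log2 fold change was -0.26 (SE 0.069, edgeR adjusted p = 0.064) from counts and -0.05 (SE 0.069, edgeR adjusted p = 0.677) per length, since its F1-γ region was 13.7% shorter. The cluster 20c & 20g at chr12:15200038-15210669 gave 4544, 4930 and 4542 CPM in F1-C and 4875, 4621 and 4698 CPM in F1-γ, with overlapping groups and a log2 fold change of 0.02 (SE 0.073). In 22c & 23g at chr13:48553896-48563017 the order of the strands was +/- in F1-C and -/+ in F1-γ. It gave 7127, 6300 and 7272 CPM in F1-C and 5895, 7055 and 5762 CPM in F1-γ, which overlapped.

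The ends of the regions differed between the groups for many members. In 12 the lengths were within 2% of each other, in 14 they were 2% to 25% apart, and in 6 over 25% apart. Of the last, 67c & 64g, 231c & 245g, 235c & 249g, 255c & 268g and 299c & 309 were longer in F1-γ and 291c & 299g was shorter. The log2 ratio of the lengths and the log2 fold change from counts went together across the 32 members (Pearson's r = 0.577 from counts and -0.133 per length). Without 291c & 299g, r was 0.431 from counts and -0.287 per length. The points share their libraries and each count was made over the length in the ratio, so that the value is a description. Over all 171 clusters r was 0.379 from counts and -0.358 per length.

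**Figure D4:**
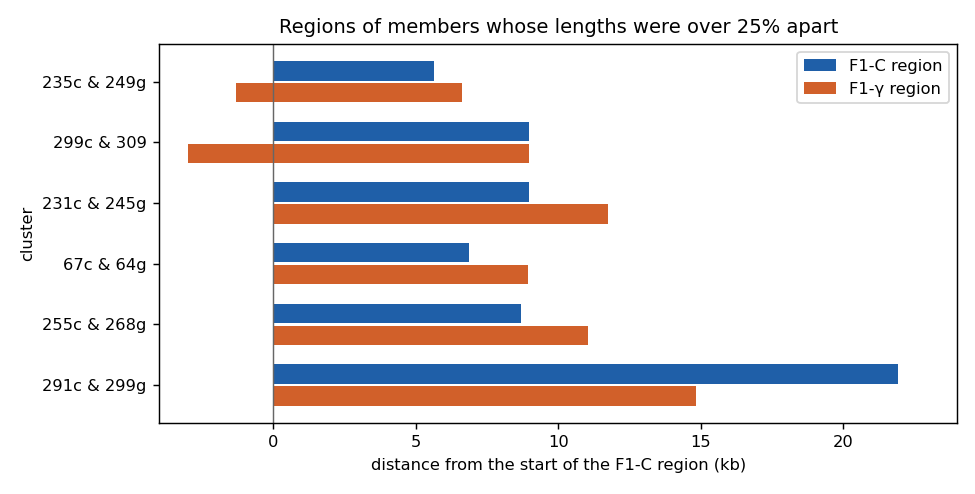
Regions of the 6 members whose lengths were over 25% apart, drawn to scale as the distance in kb from the start of the F1-C region, with the F1-C region above the F1-γ region. The region of 291c & 299g ends 7.06 kb earlier in F1-γ, and the other 5 are longer in F1-γ.

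In these 6 clusters the sign or size of the difference depended on the division by length. At chr17:49606107-49612987, 67c & 64g gave 1748, 1922 and 1785 CPM in F1-C and 2145, 2746 and 2091 CPM in F1-γ, without overlap. Its log2 fold change was 0.36 (SE 0.125, edgeR adjusted p = 0.094) from counts and -0.02 (SE 0.125, edgeR adjusted p = 0.933) per length, with a region 29.6% longer. At chr5:52625373-52631016, 235c & 249g gave 1436, 1489 and 1479 CPM in F1-C and 1277, 1484 and 1559 CPM in F1-γ, with full overlap. Per kb its levels were 254, 264 and 262 CPM in F1-C and 162, 188 and 197 CPM in F1-γ, a log2 fold change of -0.51 (SE 0.089, edgeR adjusted p = 0.0167) over a region 40.1% longer. With a library left out that edgeR adjusted p was 0.0106 to 0.0703, below 0.05 in 3 of 6 fits. For this cluster the lower level per kb came with a CPM that overlapped between the groups.

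At chr5:47014037-47023022, 231c & 245g gave 3856, 4202 and 4344 CPM in F1-C and 3960, 4340 and 5390 CPM in F1-γ. The groups overlapped, and the log2 fold change was 0.14 (SE 0.133) from counts and -0.25 (SE 0.133) per length. At chr9:15660022-15668992, 299c & 309 gave 2178, 3246 and 2321 CPM in F1-C and 2758, 2119 and 2554 CPM in F1-γ. These also overlapped, with a log2 fold change of -0.06 (SE 0.185) from counts and -0.47 (SE 0.186) per length. The edgeR adjusted p per length was 0.246 for 231c & 245g and 0.143 for 299c & 309.

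**Figure D5:**
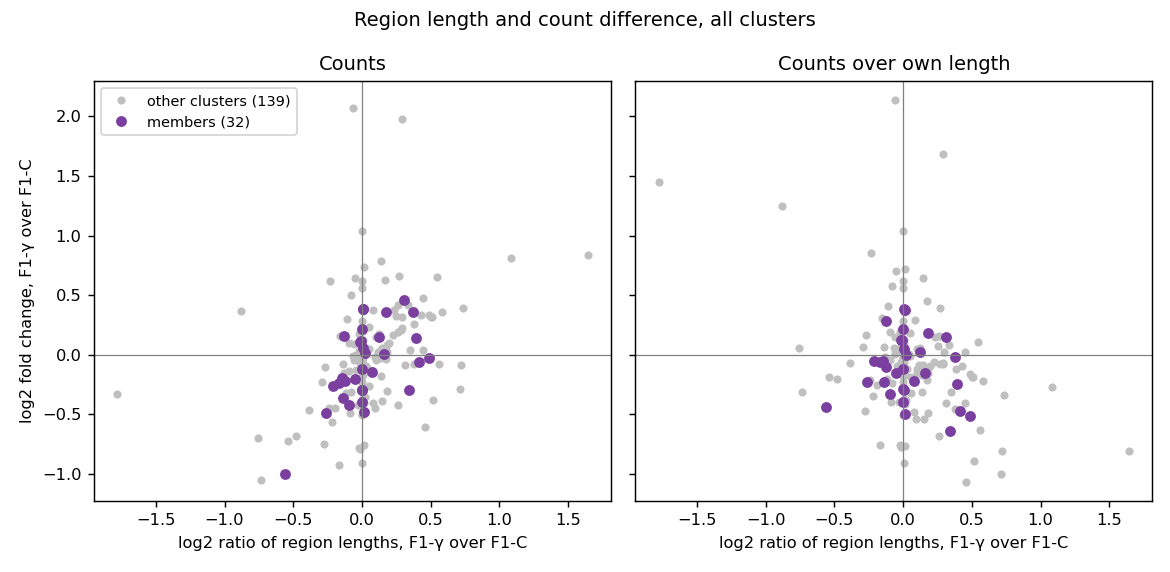
Log2 ratio of region lengths against log2 fold change (both F1-γ over F1-C) for the 32 dual-strand clusters (large points) and the other 139 clusters (small points), from counts at left and over each group's own length at right. Members with longer F1-γ regions lie higher at left (r = 0.577) and not at right (r = -0.133), and without 291c & 299g these values are 0.431 and -0.287.

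The 12 members whose lengths were within 2% of each other were counted over nearly the same bases in both groups. Their median log2 fold change was 0.04 from counts, 2 of them had an edgeR adjusted p below 0.05, against 10.5% of all clusters (104c & 105g and 258c & 271g, both lower in F1-γ), and none was called. CPM did not overlap between the groups in 6 of the 12, 2 higher and 4 lower in F1-γ, a share close to the 46.8% of all clusters.

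The deposited tables of lincRNAs and snRNAs gave 1 feature overlapping a member. The lincRNA ENSDART00000154375.2, on the minus strand at chr3:49693590-49713848, covered 80.3% of the F1-C region of 147c & 158g, chr3:49705003-49716020. Its table names no build, and coordinates were compared as given. The lincRNA had 2731, 3536 and 2577 counts in F1-C, against 5084, 4633 and 4919 counts in F1-γ, without overlap. It made up 2.63% ± 0.115 of lincRNA counts in F1-C and 3.82% ± 0.0788 in F1-γ (n = 3; p = 0.1, two-sided exact permutation test; adjusted p = 0.171). A share of lincRNA counts also depends on the other lincRNAs. In the paper, the most abundant lincRNA on the shortlist of differing lincRNAs was much lower in F1-γ. Its part in the share given here was not tested. The shortlist does not hold ENSDART00000154375.2. The cluster gave 2669, 3485 and 4321 CPM in F1-C and 3920, 3743 and 3926 CPM in F1-γ. Its groups overlapped, with a log2 fold change of 0.15 (SE 0.176, edgeR adjusted p = 0.607). The ratio of lincRNA to cluster counts was 1.80, 2.23 and 0.992 in F1-C, against 1.55, 2.04 and 1.52 in F1-γ. Whether the same reads were counted in both tables was not tested.

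The 12 members that the naming rule did not select had mean levels between 1502 and 11934 CPM and log2 fold changes between -0.42 and 0.22, 4 positive and 8 negative. Their regions differed in length by between -11.1% and 11.6%. The smallest edgeR adjusted p among them was 0.0557, for 136c & 145g on chromosome 25. CPM did not overlap between the groups in 5 of the 12, each lower in F1-γ, where 46.8% of all clusters did not overlap and 25.7% were lower. Among these was 229c & 243g at chr5:645052-676758, the second longest member, which gave 13615, 12776 and 13062 CPM in F1-C and 12208, 9268 and 10677 CPM in F1-γ.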

How the data were processed

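Small RNA libraries of 3 F1-C and 3 F1-γ embryo pools were compared. For the third F1-γ library, whose title gives 2 different replicate numbers, number 3 was taken, since the other F1-γ libraries do not have it. For piRNA clusters, the authors trimmed adapters (Trim Galore 0.3.7, per the submitters' processing notes), kept those within set limits of quality and length, aligned them to GRCz10, divided multimapping reads among loci, predicted clusters with proTRAC in each library, and kept those overlapping in all replicates of a group. The paper describes the 171 clusters as matched by position between the groups, so a cluster found in a single group is not among them. For 12c &10g, a single-strand cluster outside the members, the regions did not overlap (chr10:12014299-12034775 in F1-C, chr10:12275057-12281024 in F1-γ). The deposited cluster values are estimated counts, fractional and not scaled to library or length, over the coordinates of each group. Reads dividing among repeats make these counts less certain than their size implies. The authors' lincRNA and snRNA tables are deposited as whole counts, and their miRNA table as estimated counts. How the region ends were set was not analysed here, and they bear on every count.

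All 171 clusters were tested, and no filter removed a member. Counts were rounded and fitted with edgeR 4.0.16 (R 4.3.3), with TMM normalization, the quasi-likelihood test and Benjamini-Hochberg adjustment, without covariates. The design had allowed for RPKM, which the study tested, but the table holds counts. Standard errors were back-calculated as the size of the log2 fold change divided by the square root of the F statistic of its quasi-likelihood test. Values per length used the log of each group's own length (end minus start plus 1) as an offset with the same TMM factors. CPM uses TMM-normalized cluster totals. For single values per library, two-sided exact permutation tests were used. Alternatives were other normalizations and library totals, DESeq2 1.42.0, edgeR's exact test, voom (limma 3.58.1), the replicate number as a block, unrounded counts and each library left out, and, chosen after the data were seen, each library left out of the fit per length. Counting intervals are not given, since the spread between libraries is larger than counting error.

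Clusters are named by a rule: called in any of the 3 fits (counts, per length, voom), among the 5 highest by CPM, among the 3 highest or 3 lowest log2 fold changes, a changed sign per length with a size over 0.3, changed strands, or lengths over 25% apart. Members, lists and rules were chosen with earlier results of these data known. The procedure was tested on simulated data: over 171 clusters with 43 changed by 1.5 (log2) in 20 datasets, 98.4% were recovered. There were 0.9 false calls a dataset, and 0.65 per length, where the estimates were lower by 0.061 on average. The members' own log2 fold changes were smaller in size than 1.5, between -1.0 and 0.46 from counts. Recovery at these smaller sizes was not tested. No sequences are shown, since no genome of this build was used here.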

Additional observations from a re-analysis of the deposited data

How the results depend on the processing

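The call of 291c & 299g held with count filtering, RLE and upper-quartile normalization, cluster totals, DESeq2, edgeR's exact test, unrounded counts, the replicate block and each library left out. It was lost with totals of all 4 tables and of the miRNA table (0 calls), where its log2 fold change was -0.95 and -1.03 but the edgeR adjusted p was 0.0921 and 0.774. With voom on RPKM (0 calls) its size fell to -0.35, with a limma adjusted p of 0.0422. Per length, the members held 0 to 1 calls when a library was left out. With the adjusted p alone, 4 members and 18 clusters passed. Over all clusters, 4 were called with totals of all 4 tables, 2 with miRNA totals, 19 with DESeq2 and 6 with the replicate block, and the same member was called under the block, where 1 member had an adjusted p below 0.05. Same-numbered libraries deviated from their group means with r between -0.199 and 0.003, so the numbers were not taken to pair them. Leaving out a library gave 3 (without F1-C 3) to 18 calls (without F1-γ 1) over all clusters, 5 without F1-γ 3, and 6 to 19 per length. The ratio of summed counts per kb was 0.978 when scaled to cluster totals and 0.972 when scaled to all 4 tables, both below 1. Without scaling it was 1.32, and 1.23 to 1.44 with a library left out. The difference in share kept its sign, between -0.41 and -0.08 percentage points with a library left out. The causes were not tested.

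Of 480 values (20 named clusters, 24 alternatives each), 434 kept their sign and side of the thresholds, 10 lost the call, 2 gained it and 34 changed sign. None of the 34 was past the thresholds. Log2 fold changes with the sign changed were, per length, -0.0016 for 20c & 20g, -0.019 for 67c & 64g and -0.25 for 231c & 245g. With voom they were 0.0089 for 9c & 8g, -0.0040 for 67c & 64g and -0.13 for 231c & 245g. With upper-quartile normalization they were 0.066 for 235c & 249g and 0.039 for 299c & 309, and with cluster totals 0.020 for 235c & 249g. They were 0.017 for 235c & 249g and 0.034 for 299c & 309 when scaled to all 4 tables, and -0.023 for 20c & 20g when scaled to miRNA totals. Upper-quartile scaling moved the median of all clusters from -0.02 to 0.08 and that of the members from -0.09 to 0.0084. The members' median was -0.13 to -0.03 under the other alternatives from counts and with voom, -0.05 without F1-γ 2 among them. Leaving out a library, from counts or per length, gave -0.30 to 0.0037 for 9c & 8g, -0.024 to 0.060 for 20c & 20g, -0.13 to 0.43 for 67c & 64g, -0.022 to 0.14 for 141c & 148g, -0.38 to 0.24 for 231c & 245g, -0.58 to 0.053 for 235c & 249g and -0.56 to 0.14 for 299c & 309. With 3 against 3 libraries, no p of the sums can fall below 0.1.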
